A study of Mus musculus with 96 samples.

Results

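The Zscan4 family is a cluster of near-identical genes on mouse chromosome 7, and the members described here are Zscan4b, Zscan4c, Zscan4d, Zscan4e and Zscan4f. They are 5 of the 6 listed members and 5 of the 36935 gene symbols in the deposited count table; Zscan4a was not analysed here. The 3 further entries with a pseudogene symbol, Zscan4-ps1, Zscan4-ps2 and Zscan4-ps3, are reported beside the members and kept out of the family sum.

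Zscan4 proteins carry a SCAN domain, through which such proteins pair, and C2H2 zinc fingers that bind DNA. In mouse, the genes are transcribed in a short burst when the embryo's own genome is first switched on at the 2-cell stage, and in a small, changing fraction of embryonic stem cells. The proteins are known from stem cells to act in telomere lengthening and genome stability. Zscan4d is known as the copy with the most RNA in 2-cell embryos, and Zscan4c as the main copy in stem cells.

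The series profiled single metaphase II oocytes and single blastomeres of 2-cell embryos from a mouse line with the P620A change in Padi6, which encodes a protein of the oocyte's cytoplasmic lattices. By label, 22 libraries are oocytes homozygous for the change (Padi6P620A/P620A), 22 are 2-cell blastomeres that received it from the mother (Padi6MatP620A/+), 22 are wild-type oocytes and 22 are wild-type 2-cell blastomeres (both Padi6+/+), and 8 are negative controls. Females aged 4 to 8 weeks were given gonadotropins, males were aged 8 to 12 weeks, embryos were made by fertilisation in vitro, and cumulus cells were taken off with hyaluronidase. The labels name no animal for any library, so libraries of a label cannot be tied to separate mice.

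The stage labels go against the RNA, so libraries were classed by what they contained. Of 96 libraries, 79 were deep enough, with 100000 or more counts spread over 4000 or more genes. A library was called oocyte-like with Mos, the kinase that holds the egg in metaphase II, at 100 or more counts per 1000000 counts of the library (CPM), and 2-cell-like with Mos below that and at least 1 count of Zfp352, a gene of the 2-cell burst. This gave 39 libraries of each class and left 1 library with neither gene. The 2-cell-like class held 19 libraries labelled mutant oocyte, 11 labelled mutant 2-cell, 7 labelled wild-type oocyte, 0 labelled wild-type 2-cell and 2 labelled negative control. The oocyte-like class held 0 labelled mutant oocyte, 9 labelled mutant 2-cell, 12 labelled wild-type oocyte, 14 labelled wild-type 2-cell and 4 labelled negative control.

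The values that chose the classes are given as a description. Mos reached at most 63.3 CPM in a 2-cell-like library (library 73), and the lowest oocyte-like library had 201 CPM. Zfp352 ranged from 0.566 CPM, a single count in library 29, to 815 CPM in 2-cell-like libraries, with 0 counts in all 39 oocyte-like libraries. The depth ranged from 503644 to 3185910 counts per library (median 1608305) in the 2-cell-like class and from 162539 to 5762563 (median 3235838) in the oocyte-like class. Padi6, the altered gene, ranged from 56.7 to 500.0 CPM (median 196) in 2-cell-like libraries and from 511 to 11536 CPM (median 4547) in oocyte-like libraries; the change alters the protein, so this level does not check the genotype labels. Oocyte marker RNA was at least 2-fold lower in 2-cell-like libraries at 8 of 10 genes compared, where 27.8% of all 9677 genes compared were lower by that much. The 8 include Mos, which chose the classes. H1f8, the oocyte linker histone, stood at 898 against 12088 CPM and Bub1b, a spindle checkpoint kinase, at 26.5 against 1844 CPM. By label each library is 1 cell, apart from the negative controls, and no animal is named. Each class or label thus counts as 1 sample, no test was run, and the 95% intervals below cover counting error only.

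The sequences upstream of the genes show how alike the copies are. RefSeq's promoter table of GRCm38.p6 matched 4 of the 5 members, all on chromosome 7, and the 250 bases before each gene's start are printed below, 5′ to 3′ on the gene's own strand. Capitals mark the TATAAA match, a TATA box, with the A that follows it. The window of Zscan4b lies at chr7:10905051-10905300 on the minus strand, that of Zscan4c at chr7:11005495-11005744 on the plus strand, that of Zscan4d at chr7:11166149-11166398 on the minus strand and that of Zscan4f at chr7:11397665-11397914 on the plus strand.
Zscan4b: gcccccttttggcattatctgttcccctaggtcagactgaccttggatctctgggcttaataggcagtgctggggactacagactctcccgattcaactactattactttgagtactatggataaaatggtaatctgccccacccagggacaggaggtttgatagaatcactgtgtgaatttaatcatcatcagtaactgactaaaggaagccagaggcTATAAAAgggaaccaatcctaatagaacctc
Zscan4c: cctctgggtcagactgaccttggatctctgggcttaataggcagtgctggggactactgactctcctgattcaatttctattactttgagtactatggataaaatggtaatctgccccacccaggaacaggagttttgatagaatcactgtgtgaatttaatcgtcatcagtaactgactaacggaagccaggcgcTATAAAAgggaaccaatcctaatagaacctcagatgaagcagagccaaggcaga
Zscan4d: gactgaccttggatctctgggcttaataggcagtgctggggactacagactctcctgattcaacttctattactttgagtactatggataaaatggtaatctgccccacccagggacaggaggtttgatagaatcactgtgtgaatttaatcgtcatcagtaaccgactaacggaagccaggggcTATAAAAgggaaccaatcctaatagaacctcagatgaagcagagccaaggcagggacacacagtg
Zscan4f: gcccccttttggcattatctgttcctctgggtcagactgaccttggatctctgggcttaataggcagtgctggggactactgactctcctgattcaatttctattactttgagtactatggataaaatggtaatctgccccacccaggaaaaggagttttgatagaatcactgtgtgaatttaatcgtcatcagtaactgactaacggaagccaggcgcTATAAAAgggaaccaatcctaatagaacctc
TATAAA, searched on both strands, began 31 bases before the annotated start of Zscan4b and of Zscan4f, 54 bases before that of Zscan4c and 65 bases before that of Zscan4d. The windows are the same upstream stretch, cut at annotated starts that differ by up to 34 bases. Aligned with that shift, the RefSeq windows of 300 bases (250 before and 50 after the start) were from 95.3% to 99.3% identical between pairs, and those of Zscan4c and Zscan4f differed at 2 of 277 aligned bases. The letters TATAAA occur in 12.4% of the 32851 promoter windows of that length in the table. TGCACAC, a motif described for the Zscan4 protein itself, occurs in 3.67% of these windows and in 0 of the 4 members' windows, which says only that these letters are not there.

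The transcripts are also alike, which limits how far reads can be told apart. Between pairs of the 5 members, GENCODE M21 transcripts were from 94.4% to 97.5% identical over the shorter one. The share of 100-base windows found in no other transcript of the family was 70.4% for Zscan4d, 27.2% for Zscan4c, 21.3% for Zscan4b, 15.9% for Zscan4e and 10.5% for Zscan4f. It was 76.6% for Zscan4-ps1, 47.8% for Zscan4-ps3 and 25.4% for Zscan4-ps2. How reads that fit several copies were counted is not given in the sources used here, so the split among members is uncertain for all copies and rests on the fewest unique bases for Zscan4f and Zscan4e. The family sum is less exposed to this if reads shared between members were counted under any of them. Reads shared with the pseudogene entries and with Zscan4a are an exception. If shared reads were dropped, the sum lacks them too.

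Zscan4 RNA was present in every 2-cell-like library and at or near 0 in oocyte-like libraries. The family sum, Zscan4b to Zscan4f together, ranged from 8.54 CPM in library 25 to 1618 CPM in library 83 (median 231) in 2-cell-like libraries, against 0 to 12.4 CPM (median 0.912) in oocyte-like libraries. The classes overlapped at 1 library on the low side: 38 of 39 2-cell-like libraries lay above every oocyte-like library, and 37 of 39 oocyte-like libraries lay below every 2-cell-like library. Summed over libraries, the family stood at 281 CPM (counting interval 277 to 285) in the 2-cell-like class and at 2.60 CPM (2.31 to 2.92) in the oocyte-like class, a ratio of 108 (96.2 to 122). CPM is a share of the RNA counted, and the RNA per cell was not measured.

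**Figure D1:**
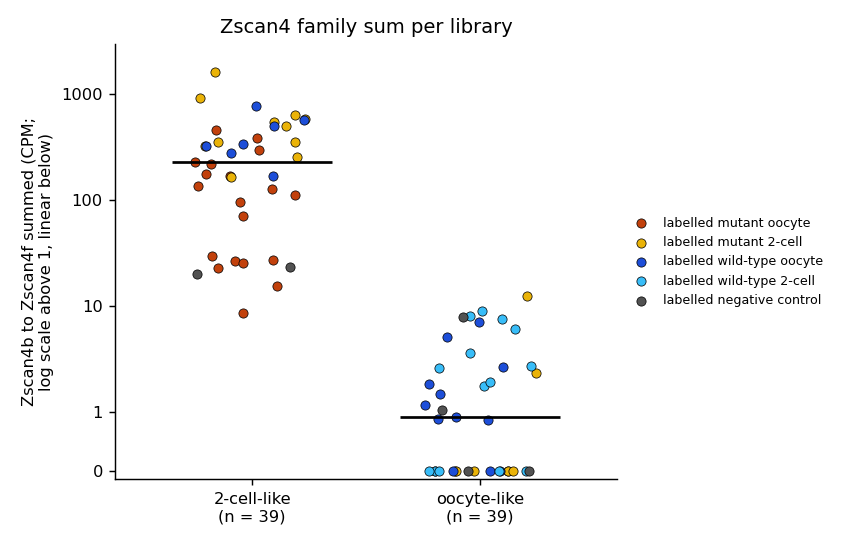
Zscan4 family sum in each library, in CPM on a scale that is logarithmic above 1 and linear below, by class and coloured by label; bars are medians. The 2-cell-like libraries run from 8.54 to 1618 CPM, with those labelled negative control and several labelled mutant oocyte at the low end, and the oocyte-like libraries run from 0 to 12.4 CPM.

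Limits of the class rule matter for the ratio and not for which class is higher. With Mos at 50 CPM in place of 100, library 73 joined the oocyte-like class and the ratio of the family sum was 47.2. Under that limit the ratio was 43.2 for Zscan4d, 43.0 for Zscan4c, 160 for Zscan4b, 58.1 for Zscan4e and 85.9 for Zscan4f. Without libraries labelled negative control, the 2-cell-like level was 295 CPM and the oocyte-like level 2.50 CPM.

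All 5 members were at least 2-fold higher in the 2-cell-like class, a difference shared by 20.9% of the 9677 genes compared. A gene was compared with a level of at least 10 CPM in 1 class and a count in at least 50% of that class's libraries, so a member could enter through its 2-cell-like level alone, and the count of 5 is read with that in mind. Over all genes compared the median log2 ratio was -0.08; over the 5 members it was 8.71, with Zscan4e entered at the floor of 3 counts. Every 2-cell-like library exceeded every oocyte-like one for 0.145% of genes compared, and no member was among them.

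Zscan4d ranged from 0.548 CPM in library 41 to 988 CPM in library 83 (median 156) in 2-cell-like libraries, against 0 to 11.1 CPM (median 0) in oocyte-like libraries. It had a count in 39 of 39 2-cell-like and in 16 of 39 oocyte-like libraries, and 34 of the 2-cell-like libraries lay above every oocyte-like one. Its pooled level was 192 CPM against 2.00 CPM, a ratio of 96.1 (84.2 to 110.1).

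Zscan4c, the copy best known from stem cells, ranged from 0 to 267 CPM (median 26.3) in 2-cell-like libraries, against 0 to 3.57 CPM (median 0) in oocyte-like libraries. It had a count in 37 of 39 2-cell-like and in 15 of 39 oocyte-like libraries, and 33 of the 2-cell-like libraries lay above every oocyte-like one. Pooled, it stood at 39.6 against 0.563 CPM, a ratio of 70.3 (54.8 to 91.8).

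Zscan4f ranged from 0 to 179 CPM (median 12.6) over 2-cell-like libraries and was counted in 34 of 39 of them, whereas in the oocyte-like class it had a single count, in library 96. The pooled levels were 25.2 and 0.00893 CPM, a ratio of 2818 with a counting interval of 505 to 111354. Without library 96 the oocyte-like class had no count, and the ratio became at least 905-fold, set against a floor of 3 counts over the class. With the Mos limit at 50 CPM, which moves library 73 into the oocyte-like class, it was 85.9, far below that interval.

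Zscan4e ranged from 0 to 97.1 CPM (median 5.84) in 2-cell-like libraries and had 0 counts in all 39 oocyte-like libraries. Its pooled 2-cell-like level was 12.5 CPM, at least 467-fold higher than a floor of 3 counts over the oocyte-like class. That bound rests on the class of library 73: with the Mos limit at 50 CPM the ratio was 58.1. RefSeq's gene table types this copy as a pseudogene.

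Zscan4b, the copy with the lowest pooled level, ranged from 0 to 87.2 CPM (median 6.38) in 2-cell-like libraries, and had 3 counts in 3 of the oocyte-like libraries. Pooled, it stood at 11.2 against 0.0268 CPM, a ratio of 419.8 (143 to 2041). Both Zscan4b and Zscan4e had a count in 30 of 39 2-cell-like libraries, and the 9 others in each case read 0 at their depth.

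**Figure D2:**
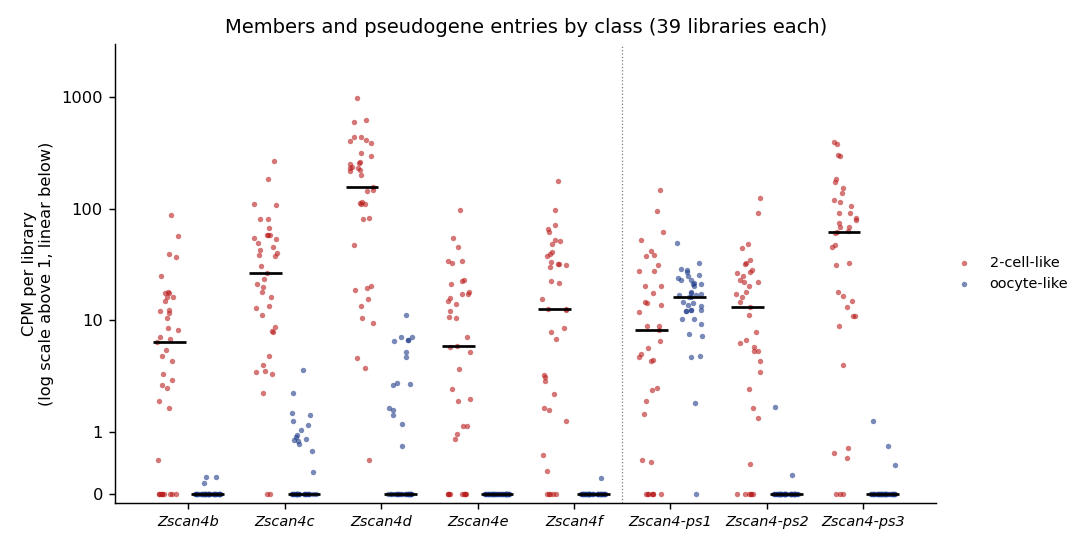
Level of each member and pseudogene entry in each library, in CPM on a scale that is logarithmic above 1 and linear below; 2-cell-like libraries stand left of oocyte-like ones and bars are medians. Zscan4d has the highest median (156 CPM) in the 2-cell-like class, and Zscan4-ps1 is the entry with the lower median in the 2-cell-like class, at 8.10 against 16.3 CPM.

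All 5 members had a count in 28 of 39 2-cell-like libraries, 4 members in 3 libraries, 3 in 3, 2 in 4 and 1 in 1 library. Of the oocyte-like libraries, 17 had no member with a count, 11 had 1, 9 had 2 and 2 had 3. Thinned to 100000 counts each, 12 of 39 2-cell-like libraries showed all 5 members, and 32 of 39 oocyte-like libraries showed none. The libraries of the 2-cell-like class, with a lower median depth than the oocyte-like ones, thus held more members at equal depth as well.

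The pseudogene entries did not all follow the genes. Zscan4-ps3 stood at 81.6 against 0.0715 CPM (ratio 1142, 579 to 2648) and Zscan4-ps2 at 17.6 against 0.0625 CPM (282, 136 to 702). These ratios rest on 8 and 7 oocyte-like counts: without library 96 the first became 2937, and without library 53 the second became 1908. With the Mos limit at 50 CPM they were 101.4 and 79.7. Zscan4-ps1 was at 17.8 CPM in the 2-cell-like class and at 16.9 CPM in the oocyte-like class, a ratio of 1.05 (0.978 to 1.13), and had a count in 32 and 38 of 39 libraries. It was the one entry of the cluster with RNA in nearly every oocyte-like library, between 0 and 49.2 CPM (median 16.3).

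Within the 2-cell-like class, Zscan4d led in the counts as deposited. Levels were not adjusted for the share of unique 100-base windows, which was 70.4% for Zscan4d and 10.5% to 27.2% for the other members. The part of this difference in the lead was not tested. Per kilobase of GENCODE M21 transcript, pooled levels were 84.6 CPM for Zscan4d, 17.4 for Zscan4c, 13.8 for Zscan4f, 7.17 for Zscan4e and 6.32 for Zscan4b. On that scale Zscan4d was the highest member in 35 of 39 libraries, Zscan4c in 3 and Zscan4f in 1. Zscan4d exceeded Zscan4c in 35 libraries and was below it in 4; Zscan4c exceeded Zscan4f in 30 and was below it in 8; Zscan4f exceeded Zscan4e in 28 and was below it in 7. Zscan4e exceeded Zscan4b in 17 libraries and was below it in 14, so these neighbours in the order do not differ beyond their spread over libraries. Zscan4-ps3 reached 35.8 CPM per kilobase, above every member but Zscan4d.

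Over all 39 2-cell-like libraries, Zscan4d made up 68.5% of the pooled family counts as deposited, with the same limit from shared reads. In the 29 libraries with at least 100 family counts, its median share was 72.4%. Its share passed 50% in 28 of them and reached 91.3% in library 46. Library 41 stood apart: Zscan4d held 0.403% of its family counts, Zscan4f 52.4% and Zscan4e 40.3%, at a family sum of 136 CPM. That library is labelled mutant oocyte and has the fewest genes of the class, 4328, which is just above the limit of 4000. Over the 29 libraries, Zscan4c held between 2.09% and 25.1% of the counts, and the highest share of Zscan4b was 14.8%, in library 36.

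The members tended to be high or low in the same libraries. Spearman's rho between pairs of members over the 39 2-cell-like libraries ran from 0.65 (Zscan4c with Zscan4e) to 0.85 (Zscan4c with Zscan4d), with a median of 0.69 over 10 pairs. These are descriptions: the points share reads between copies, library depth and the label groups. The standard deviation of log2(CPM + 1) of the family sum was 1.87, at percentile 40.4 of 7954 genes, whose median was 2.02. Zscan4d had 2.24 (percentile 68.6).

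Among 2-cell-like libraries, the family sum was lower under the mutant labels than under the wild-type label when all were pooled. This held for the mutant oocyte label but not for the mutant 2-cell label. The 30 libraries with either mutant label had a family sum of 8.54 to 1618 CPM (median 197), against 168 to 786 CPM (median 339) in the 7 labelled wild type, all of them labelled oocyte. Pooled, the levels were 270.2 and 402 CPM, a ratio of 0.672 (0.650 to 0.695). The groups overlapped widely: 15 of the 30 mutant-labelled libraries lay within the range of the wild-type-labelled ones, 13 below it and 2 above it. Pooled, none of the 5 members differed by 2-fold or more, and they did not all go the same way. Zscan4b (ratio 1.42) and Zscan4e (1.14) were higher, and Zscan4c (0.846), Zscan4d (0.606) and Zscan4f (0.653) lower. By library medians the ratios were 0.598 for Zscan4b, 0.548 for Zscan4c, 0.571 for Zscan4d, 0.391 for Zscan4e and 0.315 for Zscan4f. Of 8549 genes compared by pooled levels, 18.6% were higher and 6.32% lower by 2-fold or more. The median log2 ratio was -0.24 over the members and 0.16 over all genes.

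By pooled family sum, the mutant labels of the 2 stages lay on opposite sides of the wild-type label, with wide overlap for the mutant 2-cell label. The 19 libraries labelled mutant oocyte had 8.54 to 458 CPM (median 112), and 12 of them lay below every wild-type-labelled library. Their pooled level was 151 against 402 CPM, a ratio of 0.377 (0.362 to 0.392). Of 4 members compared, 3 were at least 2-fold lower (Zscan4c at 22.8 against 47.5 CPM, Zscan4d at 100.5 against 297 CPM and Zscan4f at 11.1 against 37.0 CPM), where 10.3% of 8485 genes were lower and 19.1% higher by that much. Zscan4e, also compared, was at 8.14 against 11.9 CPM (ratio 0.686). Zscan4b was too low to be compared and hardly differed, at 8.90 against 8.88 CPM. The 11 libraries labelled mutant 2-cell had 165 to 1618 CPM (median 499.6). Of them, 8 lay within the range of the wild-type-labelled libraries, 2 above it and 1 below it. Library 83 alone held 2282 of their 8012 family counts. Pooled, the 11 libraries stood at 575 against 402 CPM in the same 7 wild-type-labelled libraries, a ratio of 1.43 (1.38 to 1.48). Here 2 of 5 members were at least 2-fold higher (Zscan4b at 22.1 against 8.88 CPM and Zscan4e at 27.4 against 11.9 CPM), where 22.9% of 8544 genes were higher and 8.61% lower by that much. Zscan4b was below 10 CPM under the wild-type label, so it was compared through its mutant 2-cell level alone. Library 83 held 123 of the 308 Zscan4b counts and 137 of the 382 Zscan4e counts under the mutant 2-cell label. Neither call was rerun without that library. By library medians, Zscan4b was at 16.1 against 8.48 CPM and Zscan4e at 17.1 against 13.9 CPM. The mutant oocyte and mutant 2-cell comparisons use the same wild-type-labelled libraries, so their values are not independent.

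Set directly against each other, the libraries labelled mutant 2-cell and those labelled mutant oocyte stood at 575 and 151 CPM, a ratio of 3.79 (3.67 to 3.93). Of the libraries labelled mutant oocyte, 12 of 19 lay below all 11 labelled mutant 2-cell. Zfp352, which the class rule used, was at 337 against 110.0 CPM in the same libraries, a ratio of 3.06 (2.94 to 3.20). The summed burst genes described below had a median of 5589 CPM in libraries labelled mutant 2-cell, 1518 CPM in those labelled mutant oocyte and 2571 CPM in those labelled wild-type oocyte. Padi6 had medians of 298 CPM under the mutant 2-cell label, 199.9 CPM under the mutant oocyte label and 135 CPM under the wild-type oocyte label. The part of the stage of collection, the genotype or the library preparation in these differences cannot be told apart, since stage labels go against the RNA and 0 libraries labelled wild-type 2-cell are in the class.

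**Figure D3:**
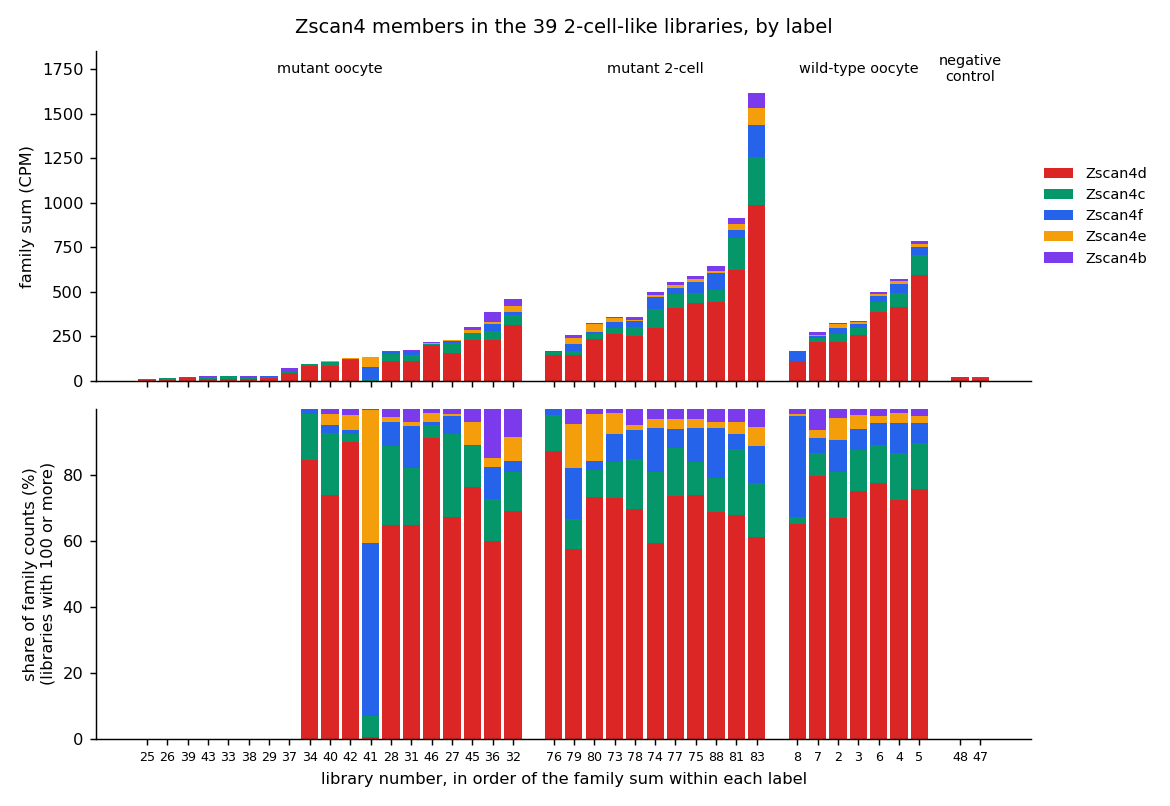
Family sum per 2-cell-like library in CPM, stacked by member (top), and each member's share of the family counts in libraries with at least 100 (bottom), by label; numbers on the x axis are the libraries' label numbers. Libraries labelled mutant oocyte reach 458 CPM and those labelled mutant 2-cell 1618 CPM, and library 41 is the one in which Zscan4d is not the largest share.

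Most other genes of the 2-cell burst were higher in the same class as the family. The list held 48 genes without Zscan4, of which 35 were in the table and 32 were compared. Of these, 30 were at least 2-fold higher in the 2-cell-like class and 0 lower. Over all 9677 genes compared, 20.9% were higher and 27.8% lower by that much. Of the 35 in the table, 19 had 0 counts in the oocyte-like class. A gene could be compared through its 2-cell-like level alone, and the count of 30 is read with that in mind. The median log2 ratio over the 32 was 10.18 when genes at 0 counts in the oocyte-like class are set to the same floor. The list includes Zfp352, which chose the class. AF067061 stood at 173 against 0 CPM, Eif1ad16, a copy of a translation initiation factor-like gene, at 152 against 0 CPM, and Eif1ad8 at 124 CPM against 1 count in the oocyte-like class. Sp110 (68.3 against 57.4 CPM) and Arg2 (119 against 68.9 CPM), which the list also names, differed by less than 2-fold.

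Across the 39 2-cell-like libraries the family sum and the summed burst list had a Spearman's rho of 0.79 and a Pearson's r of 0.86 on the log2 scale. Without the pair of libraries farthest from the median of the burst sum, rho was 0.84. Within labels it was 0.81 over 19 libraries labelled mutant oocyte, 0.54 over 11 labelled mutant 2-cell and 0.25 over 7 labelled wild-type oocyte. With Zfp352, rho was 0.63 in all and 0.34, 0.06 and 0.54 within the same labels. With the library total it was -0.17, with the number of genes counted -0.26, and with the summed oocyte markers 0.12. Within the same labels, in the same order, rho with the library total was 0.41, -0.09 and -0.29. With the number of genes it was -0.16, -0.37 and 0, and with the summed oocyte markers -0.28, -0.65 and -0.71. The oocyte marker values within labels were thus all negative, unlike the pooled value. The points share the library and its depth, and the labels sit at different levels, so the pooled values hold both the spread within labels and the gaps between them.

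**Figure D4:**
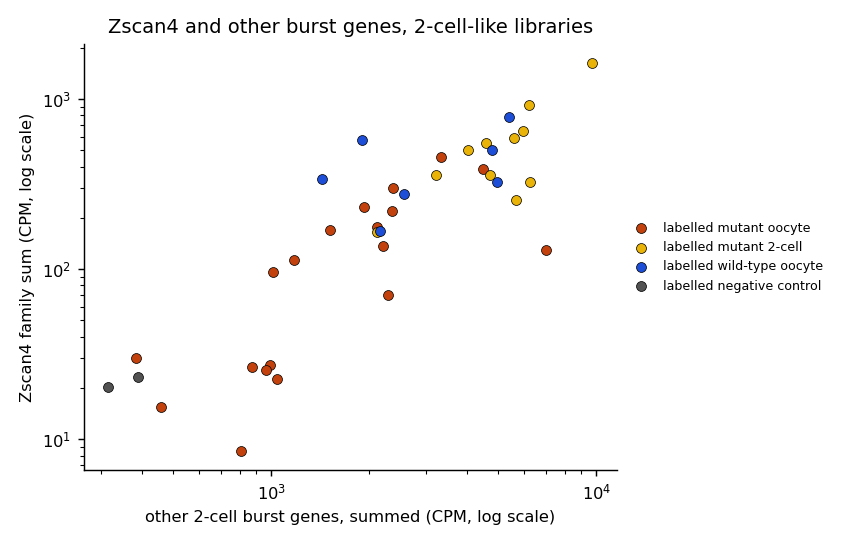
Zscan4 family sum against the summed CPM of 35 other 2-cell burst genes in each 2-cell-like library, both on log scales, coloured by label. Libraries low in one measure tend to be low in the other, those labelled negative control lie at the low end, and library 83 (labelled mutant 2-cell, 1618 CPM) lies at the top.

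Several named genes followed the family sum across the 39 libraries more closely than most. Of 7954 genes at 10 CPM or more with a count in at least 50% of the libraries, the median rho was -0.04, with 5th and 95th percentiles of -0.41 and 0.45. The 10 highest with a proper gene name were Rpl41, a ribosomal protein gene (0.77), Dkkl1, a secreted Dickkopf-like protein gene (0.75), Snrpc of the U1 splicing particle (0.74), Cdkn1a, the p21 cell-cycle inhibitor (0.74), Pabpn1, a nuclear poly(A)-binding protein gene (0.73), Ttc30b of the cilium transport machinery (0.73), Eif1ad15 (0.73), Ercc4, a DNA repair nuclease subunit (0.73), Mt2, a metallothionein (0.72), and Eif1ad19 (0.72). Leaving out each library in turn kept rho of Rpl41 between 0.75 and 0.82. Within labels the values differed: for Rpl41 they were 0.23, 0.35 and 0.96 and for Dkkl1 0.74, -0.08 and 0.39 in libraries labelled mutant oocyte, mutant 2-cell and wild-type oocyte.

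Dkkl1 was at 22.1 against 0.304 CPM, Ercc4 at 106 against 3.96 CPM and Snrpc at 49.4 against 6.91 CPM between the classes, whereas Rpl41 was at 176 against 305 CPM and Cdkn1a at 70.3 against 82.5 CPM. The genes nearest the family in rank were thus not all higher in the 2-cell-like class. The 5 lowest were Lin7c (-0.72), Lzts1 (-0.69), Mtus1 (-0.66), Ap3m1, an adaptor complex subunit (-0.65), and Sms, spermine synthase (-0.64). The pseudogene entries had rho of 0.88 (Zscan4-ps2), 0.78 (Zscan4-ps3) and 0.65 (Zscan4-ps1), and share reads with the members.

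The lists that follow are read against the shares over all genes compared, 20.9% at least 2-fold higher and 27.8% lower. Of 10 known activators of the burst counted, 8 were compared, 2 were at least 2-fold higher and 1 lower. Obox6, an early embryo homeobox gene, stood at 38.7 CPM against 2 counts, and Dppa4, a chromatin factor, at 44.2 against 2.33 CPM. Obox2, an oocyte homeobox gene, was lower, at 123 against 1496 CPM. Obox5 (2888 against 1593 CPM), Dppa2 (35.8 against 27.5 CPM) and Nelfa (276 against 206 CPM) differed by less than 2-fold. Duxf3, the entry for the Dux activator, had 4.55 CPM against 1 count, with a count in 20 of 39 2-cell-like libraries, too low to be compared; its rho with the family sum was 0.15.

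Of 15 known repressors of the 2-cell programme compared, 3 were at least 2-fold higher and 4 lower, with a median log2 ratio of 0.07, which is near the 20.9% and 27.8% over all genes. Trim28 (50.4 against 159 CPM) and Setdb1 (195 against 511 CPM), which build heterochromatin, and Ehmt1, a histone methyltransferase (29.2 against 120.2 CPM), were lower. Chaf1b (20.4 against 5.60 CPM) and Chaf1a (179 against 84.8 CPM), subunits of the chromatin assembly factor, and Mga (63.1 against 31.1 CPM) were higher. Over the 17 listed repressors, rho with the family sum ran from -0.58 (Setdb1) and -0.46 (Chaf1a) to 0.24 (Max) and 0.25 (L3mbtl2). Several lay near 0, such as Trim28 (0.03) and Chaf1b (0.06).

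The Zscan4 protein is known to act at telomeres. Of 12 telomere maintenance genes compared, 1 was at least 2-fold higher and 5 lower, against 20.9% higher and 27.8% lower over all genes, with a median log2 ratio of -0.50 against -0.08. Acd, the shelterin subunit that recruits telomerase, was at 311 against 94.7 CPM. Terf1 (9.97 against 45.7 CPM) and Terf2 (3.25 against 24.7 CPM), the shelterin subunits that bind telomeric DNA, and Tert, the telomerase subunit (7.64 against 23.4 CPM), were lower. Of the 7 genes listed as partners or effectors of the protein, 5 were compared: Hdac1 (47.5 against 7.86 CPM) was at least 2-fold higher, Dnmt1 (54.3 against 764 CPM), Uhrf1 (499.8 against 1126 CPM) and Kdm1a (27.2 against 61.9 CPM) lower, and Rnf20 (138 against 76.0 CPM) between. Tet2 (8.43 against 9.59 CPM) and Terf2ip (8.60 against 5.47 CPM) were below the limit.

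Of 22 other listed genes with a SCAN domain, 15 were compared, of which 4 were at least 2-fold higher and 5 lower, with a median log2 ratio of -0.17. These counts lie near the 20.9% higher and 27.8% lower over all genes. Zscan5b was at 84.3 against 12.4 CPM (ratio 6.78) and had rho of 0.55 with the family sum. Zscan10, a stem cell factor, was at 2.53 against 22.0 CPM, Zscan26 at 4.24 against 16.5 CPM and Zkscan3 at 5.56 against 17.6 CPM.

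Most neighbours of the cluster had few counts. Among the 10 genes on each side of the cluster in RefSeq's gene order, 7 that are not family entries were in the table, and 3 of them, Vmn1r70, Vmn1r73 and Vmn1r74, had 0 counts in the 2-cell-like class. The vomeronasal receptor genes Vmn1r69, Vmn1r71 and Vmn1r72 were counted in 5, 1 and 2 of 39 2-cell-like libraries, at 1.63, 0.0308 and 0.817 CPM. Nlrp4b, an oocyte NLR family gene, was at 110.3 against 483 CPM, with a count in 38 of 39 and 39 of 39 libraries. None of these neighbours was higher in the 2-cell-like class at a level that could be compared.

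Markers of other cells were also read in both classes. The 12 cumulus and granulosa markers summed to between 0 and 162 CPM (median 20.4) in 2-cell-like libraries and to between 11.5 and 8196 CPM (median 327) in oocyte-like libraries. All 7 of them that were compared were at least 2-fold lower in the 2-cell-like class: Hsd3b1, a steroid enzyme, had 2 counts against 524 CPM and Cyp11a1 2.07 against 203 CPM. A marker could be compared through its oocyte-like level alone, and the count of 7 is read with that in mind. Over all genes compared 27.8% were lower by 2-fold or more. Of the 5 markers too low to be compared, Ptx3 (0 against 14.1 CPM), Foxl2 (0 against 0.679 CPM) and Fshr (0.385 against 1.46 CPM) were lower, and Amh (2.65 against 0.0268 CPM) and Has2 (2.39 against 0.456 CPM) were higher, with a count in 5 and 7 of 39 2-cell-like libraries. The 6 sperm markers summed to 0 to 54.2 CPM (median 8.48) against 0 to 18.5 CPM (median 6.37), with Tnp1 and Tnp2 at 0 in both classes, and the 7 blood markers to 0 to 49.1 CPM (median 3.96) against 0 to 387 CPM (median 1.84). Of the sperm genes, Prm1 had 14 counts against 0, Prm2 3.31 against 0.366 CPM, Odf1 0.632 against 0.304 CPM and Oaz3 8.24 against 6.18 CPM. Of the blood genes, Hba-a1 had 6.21 against 0.188 CPM, Hba-a2 34 counts against 0, Hbb-bs 0.0616 against 0.688 CPM, Hbb-bt 0 counts against 1, Ptprc 0.277 against 0.0536 CPM, Lyz2 1.86 against 27.6 CPM and Cd52 1.08 against 6.60 CPM. Across 2-cell-like libraries the cumulus sum had rho of -0.30 with the family sum. The part of these cells' RNA in the oocyte-like Zscan4 counts was not tested.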

How the data were processed

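RNA was measured in 96 libraries, single-cell by label apart from the 8 negative controls. The method used polyadenylated RNA, template switching, PCR and tagmentation, with no molecular identifiers named, per the labels' protocols. The authors deposited raw counts per gene symbol, trimmed with Trim Galore 0.4.4 and aligned with HISAT2 2.1.0 to GRCm39, per the submitters' processing notes; the counting tool and its treatment of reads that fit several copies are not given in the sources used here. Of 36983 entries, 48 repeated symbols were summed. Totals per library ran from 24 to 5762563 counts, and 0 pairs of libraries were identical.

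From the counts, CPM per library, pooled CPM (summed counts over summed totals) with exact Poisson 95% intervals, and ratios with exact conditional binomial intervals were computed (Python 3.11.15, scipy 1.17.1). PCR copies are not independent molecules, so intervals and floors cover counting error only. A class at 0 stood at 3 counts. The ratio and its call were run on simulated Poisson counts. These had no added spread between libraries, so that run checks the calculation and does not measure error in the real libraries. Alternatives were a stricter library filter, other Mos and Zfp352 limits, no negative-control labels, no filter on low genes, library medians and means, edgeR 4.0.16 TMM factors, DESeq2 1.42.0 size factors, thinning to 100000 counts and leaving out each library. Negative-control libraries that met the class rule were kept. No doublet search was made. By label each library comes from 1 picked cell, apart from the negative controls, and the label was not checked for further cells. Genes named were the members and pseudogene entries, Mos, Zfp352 and Padi6, the 10 highest and 5 lowest by likeness, and up to 4 genes of each list with the largest ratio, all for lists of 7 or fewer. The text names further genes of the lists after their values were seen. Members and lists were chosen with earlier results of these data known. Promoters are RefSeq GRCm38.p6 and transcripts GENCODE M21, an earlier build than the counts, so no coordinates were joined to counts.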

Additional observations from a re-analysis of the deposited data

Results flagged for a closer look

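In the oocyte-like class, library 93, labelled mutant 2-cell, had a Zscan4 family sum of 12.4 CPM, far from the other libraries of that class and label, and library 96, labelled negative control, had 7.92 CPM, far from the others of its label. The value of library 96 lay within the range of the class under other labels, where library 56, labelled wild-type 2-cell, had 8.91 CPM. Among 3 groups of 4 to 10 libraries looked at, chance would flag about 1 in 20 if values were normally spread. Many values under both labels were 0, so that rate need not hold here. Library 93 also had the highest Zscan4-ps1 level of its class, 49.2 CPM.

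Outside both classes, 3 libraries read above the 23.2 CPM that is the highest Zscan4 family sum under the negative-control label. One of them, library 66, labelled wild-type 2-cell, had 23.7 CPM from 1 count of Zscan4d among 42270 counts, which is under the floor of 3 counts. Library 82, labelled mutant 2-cell, had 866 CPM (Zscan4d 767, Zscan4f 63.8, Zscan4c 23.0, Zscan4b 12.8 and Zscan4e 0 CPM) with 2486 genes counted and no count of Zfp352 or Mos. Library 1, labelled wild-type oocyte, had 47.5 CPM, of which Zscan4f made up 95.3%, with 3775 genes counted and Zfp352 at 375 CPM.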

How the results depend on the processing

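The family sum was higher in the 2-cell-like class under every alternative run. Its level there was 281 CPM as reported, 285 with at least 500000 counts and 6000 genes per library, 309 with Zfp352 at 10 CPM or more, 295 without negative-control labels, 231 by library medians, 306 by means, 262 with TMM factors, 245 with DESeq2 size factors and 308 thinned to 100000 counts. The ratio to the oocyte-like class was 108 as reported, 47.2 with a Mos limit of 50 CPM (library 73 changes class), 254 by medians, 134 by means, 92.7 with TMM, 87.0 with DESeq2 factors and 134 thinned. Thinned, it was 17.3 for Zscan4b, 19.7 for Zscan4e and 31.7 for Zscan4f. Adding the pseudogene entries, chosen after seeing the data, gave 398 CPM and a ratio of 20.3.

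The ratio of mutant-labelled over wild-type-labelled libraries was 0.672 as reported, 0.708 with the Zfp352 limit, 0.581 by medians, 0.702 by means, 0.629 with TMM, 0.729 with DESeq2 factors, 0.723 thinned and 0.594 with the pseudogene entries. Chosen after seeing the data, it was 0.377 with libraries labelled mutant oocyte alone and 1.43 with those labelled mutant 2-cell alone, where Zscan4c (1.78), Zscan4d (1.29), Zscan4f (1.56), Zscan4-ps1 (1.76) and Zscan4-ps2 (1.57) also turned. Zscan4b turned to 0.598 by medians, Zscan4-ps2 to 1.12 thinned, and Zscan4c, 0.692 to 1.04 with each library left out, to 1.04 without library 4. Zscan4e, at 1.14 as reported, lay on the other side of 1 by medians (0.391), with libraries labelled mutant oocyte alone (0.686) and without library 8 (0.933); the cause was not tested in any of these.

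Leaving out each library in turn gave a level of 251 to 294 CPM, a class ratio of 96.6 to 125, a label ratio of 0.574 to 0.758, 2011 to 2093 genes at least 2-fold higher, and a rho of the nearest gene of 0.752 to 0.821. Library 83 gave the lowest level and class ratio. Without the filter on low genes, 10196 genes were at least 2-fold higher, against 2026. The median log2 ratio of all genes was -0.08, -0.32 with TMM and -0.42 with DESeq2 factors, and the share of higher among called genes was 43.0%, 33.4% and 29.2%. No paired analysis was possible because the groups share no label numbers. Members at 0 in shallow libraries, and the split among near-identical copies, are limited by depth and by shared reads.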
